A study of Mus musculus with 6 samples.

Results

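The 42 genes described here are proliferation genes, 20 that act in DNA replication and S phase and 22 that act in mitosis. They were taken by symbol from a table of read counts with 26971 features, and each of the 42 symbols had a feature there. All 20 S phase members and all 22 mitotic members were among the 14274 genes that passed the filter on low counts and were tested. Libraries were made from kidney cortex 1 day after surgery, and the mice were C57BL/6 males. In 1 group, IRI with IVCC, renal congestion was added to the IRI kidney, and in the other, IRI, it was not. IRI commonly stands for ischaemia-reperfusion injury, an interruption of the kidney's blood supply followed by its return. The labels expand neither IVCC nor CLK, which stands in the titles of the IRI samples, and do not give the ages of the mice. Each group had 3 libraries, numbered 1 to 3. All 6 libraries came from injured kidneys, and uninjured kidneys were not analysed here.

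A cell that enters the cycle first builds the machinery that copies its DNA and then the machinery that divides it. Genes of the first kind are bound by E2F transcription factors, which cyclin D and cyclin E kinases release from the retinoblastoma protein. Genes of the second kind are held back by the DREAM complex at a promoter element called CHR and are later driven by B-MYB and FOXM1. Surviving tubule cells are known to re-enter the cycle after ischaemic injury, so both sets are commonly read as measures of repair in the kidney.

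Total counts ranged from 10865860 to 14350425 reads. Replicates of 1 group differed by far more than sampling noise, and the common biological coefficient of variation was 0.337. The proximal tubule marker list was high in all 6 libraries, at a summed 32377 to 35093 CPM (reads of a gene relative to the library's scaled total) in IRI with IVCC and 35990 to 61702 CPM in IRI. Kap, the highest of that list, alone held 17158 to 23757 CPM in IRI with IVCC and 21657 to 50616 CPM in IRI. Injury markers were led by Spp1 and Havcr1. Of 16 leukocyte markers 10 were tested. The T cell gene Cd3e had no read in the 3 IRI with IVCC libraries and at most 1 read in an IRI library. Whether each library is a different mouse is not stated in the labels, and nor is what a replicate number shares. All p-values below thus describe the variation among these 6 libraries, which may be technical.

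S phase members were mostly expressed at higher levels than mitotic ones. On the scale of mean CPM per kilobase of exon, S phase members lay between 1.40 for Chaf1a, a subunit of the chromatin assembly factor, and 23.4 for Pcna, the sliding clamp of DNA polymerases. Mcm6, a subunit of the replicative helicase, followed Pcna at 20.6 CPM per kilobase. Mitotic members lay between 0.302 for Cenpf, a kinetochore protein, and 2.60 for Cdk1, the kinase that starts mitosis. Both ranges overlap between 1.40 and 2.60 CPM per kilobase. The 20 S phase members together held 4378 to 10928 reads per library and the 22 mitotic members 531 to 3900 reads, so single mitotic genes rest on few reads. The lowest counts were 5 reads for the spindle checkpoint kinase Bub1 in IRI with IVCC replicate 1 and 7 reads for the cyclin Ccnb2 in IRI replicate 3.

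The comparison of IRI with IVCC with IRI asked whether congestion altered these genes in the injured kidney. Summed over the 20 S phase members, the 3 IRI with IVCC libraries held 392, 798 and 663 CPM in replicates 1, 2 and 3, and the IRI libraries 580, 774 and 473 CPM. The means were 618 ± 207 CPM in IRI with IVCC and 609 ± 153 CPM in IRI (SD, n = 3 each). The groups overlapped and their means differed by much less than the spread between replicates. Summed over the 22 mitotic members, IRI with IVCC libraries held 47.6, 285 and 102 CPM, and IRI libraries 74.2, 243 and 64.9 CPM. The means were 145 ± 124 CPM in IRI with IVCC and 127 ± 100.02 CPM in IRI (SD, n = 3 each). In both groups the library numbered 2 was the highest, and its distance from the others exceeded the difference between the groups. In these bulk libraries fewer cycling cells and less RNA of these genes per cell cannot be told apart.

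**Figure D1:**
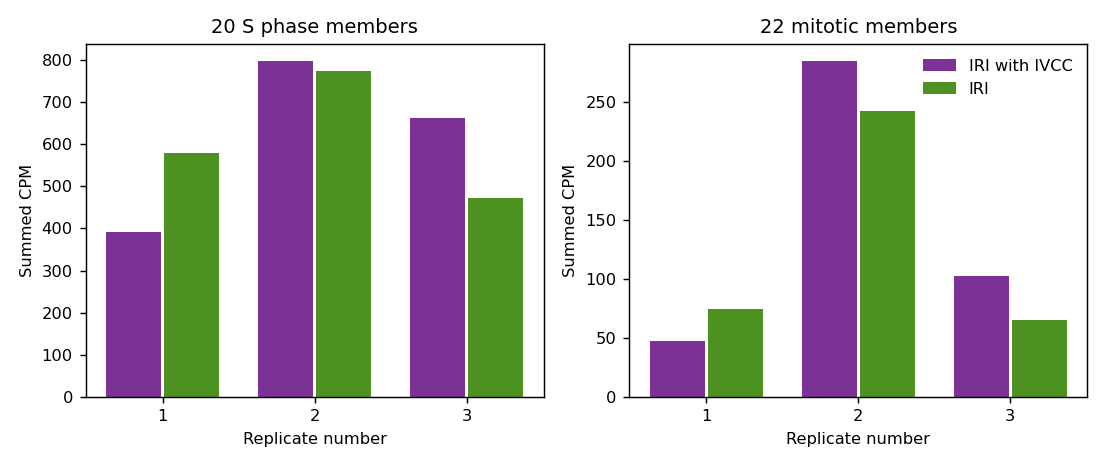
Summed TMM-scaled CPM of the 20 S phase members (left) and the 22 mitotic members (right) in each library, by replicate number, IRI with IVCC beside IRI. Mitotic sums are 285 and 243 CPM in the libraries numbered 2 and 47.6 to 102 CPM in the other 4.

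No member passed the test of IRI with IVCC against IRI. In edgeR's quasi-likelihood test 0 of the 42 members were called at an adjusted p under 0.05, and 0% of all 14274 genes were, with 0 members and 285 genes at an unadjusted p under 0.05. DESeq2 also called 0 genes, with 354 genes and 0 members at an unadjusted p under 0.05. The median log2 fold change was -0.01 over the S phase members, 9 of 20 lying above 0, and 0.28 over the mitotic members, 18 of 22 lying above 0, against -0.0046 over all genes. Of the 42 members, 0 had 3 IRI with IVCC libraries all on one side of the 3 IRI libraries, which 6.49% of all genes did. The mitotic median turned to -0.84 without IRI with IVCC replicate 2 and to -0.04 without IRI replicate 3. Leaving out IRI with IVCC replicates 1 and 3 gave 0.70 and 0.50, and leaving out IRI replicates 1 and 2 gave 0.01 and 1.17. For the S phase median, leaving out IRI with IVCC replicates 1, 2 and 3 gave 0.24, -0.20 and -0.11, and leaving out the IRI replicates gave -0.01, 0.29 and -0.19.

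Uhrf1, which carries DNA methylation through replication, had the smallest p among the members. It held 17.8, 49.0 and 39.1 CPM in IRI with IVCC replicates 1, 2 and 3, against 16.1, 30.1 and 22.4 CPM in IRI. The IRI with IVCC library was the higher one of each number, although the groups overlapped. Its log2 fold change was 0.63 (standard error 0.40), at an edgeR adjusted p of 0.933. With the replicate number as a block it was 0.56 (standard error 0.21), and edgeR gave an unadjusted p of 0.0259 and an adjusted p of 0.577. Mcm2, another helicase subunit, held 34.6, 59.7 and 59.1 CPM in IRI with IVCC, against 38.6, 42.8 and 41.8 CPM in IRI. Its IRI libraries lay close together while its IRI with IVCC libraries lay on both sides of them. Gins1, part of the complex that activates the helicase, held 6.36, 9.28 and 6.58 CPM in IRI with IVCC and 14.4, 10.7 and 4.85 CPM in IRI. Pcna held 44.5, 62.7 and 45.1 CPM in IRI with IVCC and 77.2, 70.9 and 37.2 CPM in IRI. The log2 fold changes of Mcm2, Gins1 and Pcna were 0.32, -0.43 and -0.28 with standard errors of 0.25, 0.41 and 0.31, each at an edgeR adjusted p of 0.933. Both Gins1 and Pcna were lower in IRI with IVCC in replicates 1 and 2 and higher in replicate 3.

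Foxm1, the transcription factor of mitotic genes, had the smallest p among the mitotic members. It held 1.43, 7.67 and 3.76 CPM in IRI with IVCC and 1.03, 5.71 and 1.94 CPM in IRI. The IRI with IVCC library was again the higher one of each number, and the groups overlapped. Its log2 fold change was 0.57 (standard error 0.76, edgeR adjusted p = 0.933), and -0.15 without IRI with IVCC replicate 2. Ccnb1, the cyclin that pairs with CDK1, held 1.07, 5.26 and 0.705 CPM in IRI with IVCC and 1.11, 2.90 and 0.969 CPM in IRI. Ccnb1 had 9 to 72 reads a library, and it was higher in IRI with IVCC in replicate 2 only. The log2 fold change of Ccnb1 was 0.51 (standard error 0.81), and -0.90 without IRI with IVCC replicate 2. Cdk1 itself held 5.10, 20.5 and 9.09 CPM in IRI with IVCC and 12.1, 25.2 and 4.76 CPM in IRI. Its log2 fold change was -0.28 (standard error 0.67). It was 0.46 when IRI replicate 2 and 0.08 when IRI with IVCC replicate 1 was left out, so its sign too rested on single libraries.

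Within equal replicate numbers the difference between the groups changed direction from number to number. The ratio of IRI with IVCC to IRI in summed CPM was 0.676, 1.03 and 1.40 in replicates 1, 2 and 3 for the S phase members. For the mitotic members it was 0.641, 1.17 and 1.57. In replicate 1, 18 of 20 S phase and 18 of 22 mitotic members were lower in IRI with IVCC, as were 49.7% of all genes. In replicate 2, 7 S phase and 16 mitotic members were higher in IRI with IVCC, against 50.5% of all genes. In replicate 3, 20 of 20 S phase and 20 of 22 mitotic members were higher in IRI with IVCC, against 49.7% of all genes. So most members of a set lay on the same side in a given number, lower in IRI with IVCC in replicate 1 and higher in replicate 3. Each such difference compares 1 library with 1 library and has no replicate check.

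**Figure D2:**
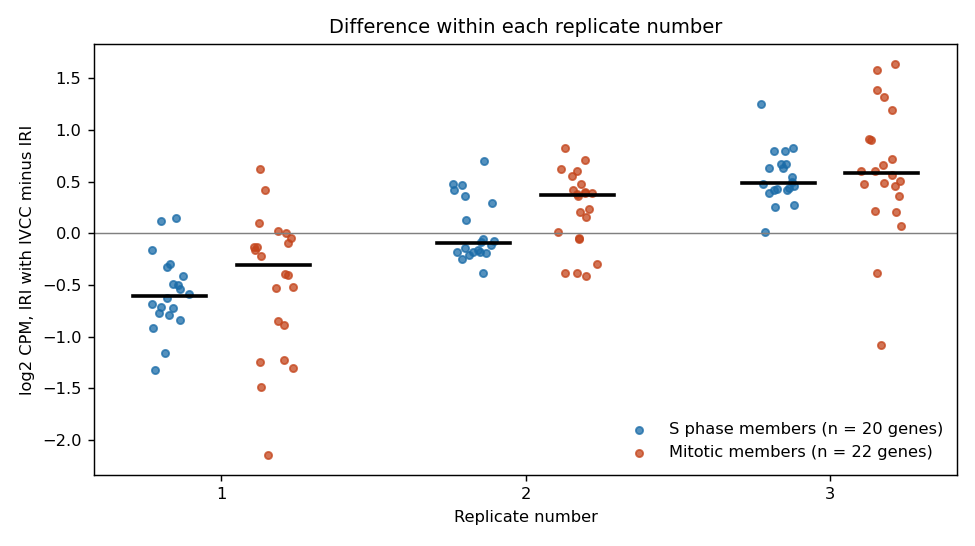
Difference in log2 CPM (prior count 2) of IRI with IVCC minus IRI within each replicate number, 1 point per gene, with the median of each set as a black bar. Medians of the S phase members are -0.61, -0.10 and 0.49 and those of the mitotic members -0.31, 0.37 and 0.58 in replicates 1, 2 and 3.

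Both lower in IRI with IVCC in replicate 1 and higher in replicate 3 were 18 of 20 S phase and 17 of 22 mitotic members, a combination that 31.1% of all genes showed. The largest reversals among the helicase genes and their loaders were those of Cdc45, which differed by -1.32, -0.19 and 1.25 on the log2 scale in replicates 1, 2 and 3. Birc5, which encodes survivin of the chromosomal passenger complex, differed by -2.15, -0.38 and 0.72. It had 8 reads in IRI with IVCC replicate 1. Prc1, which bundles microtubules in the dividing cell's midzone, differed by -0.13, 0.23 and 1.64. Picked after their values were seen, 5 members were higher in IRI with IVCC in all 3 numbers, namely Uhrf1, the cyclin Ccne2, the mitotic kinase Aurkb, Cenpf and Foxm1. No member was lower in all 3. Over all 14274 genes tested, 1866 were higher in IRI with IVCC in all 3 numbers, and 26.1% kept 1 direction, so the 5 members do not stand out.

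**Figure D3:**
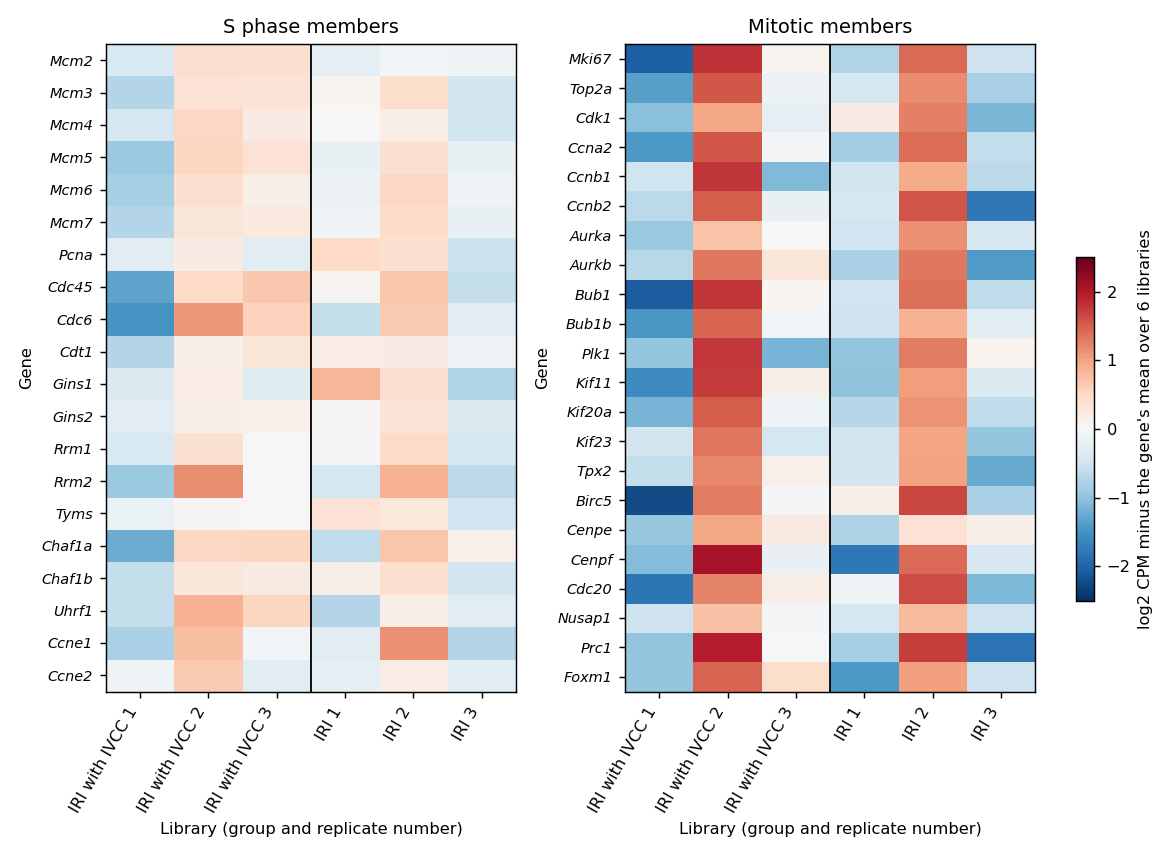
Level of each member in each library as log2 CPM minus the gene's own mean over the 6 libraries, for S phase members (left) and mitotic members (right), with the 3 IRI with IVCC libraries left of the 3 IRI libraries. All 22 mitotic members are highest in the 2 libraries numbered 2, as are 11 of the 20 S phase members.

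The spread over replicate numbers was much wider than that between the groups, and it set the mitotic members apart from the S phase members. Both libraries numbered 2 lay above the other 4 for 22 of 22 mitotic and 11 of 20 S phase members, against 4.62% of all genes. Mitotic CPM of replicate 2 was 5.99 times that of replicate 1 in IRI with IVCC and 3.27 times in IRI. Relative to replicate 3 it was 2.79 times as high in IRI with IVCC and 3.74 times in IRI. For the S phase members the ratio of replicate 2 to 1 was 2.04 in IRI with IVCC and 1.33 in IRI, and that of replicate 2 to 3 was 1.20 and 1.64 in the same groups. The mitotic sum therefore moved further than the S phase sum. It came to 12.1, 35.7 and 15.4% of the S phase sum in IRI with IVCC replicates 1, 2 and 3, and to 12.8, 31.3 and 13.7% in IRI.

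With group in the model, edgeR's quasi-likelihood test called 17 of 22 mitotic and 2 of 20 S phase members between the replicate numbers, where it called 8.01% of all genes. At an unadjusted p under 0.05 stood 22 mitotic and 8 S phase members, against 26% of all genes. Replicate 2 was called higher than replicate 1 for 17 mitotic and 4 S phase members, against 3.39% of all genes. Replicate 3 was called higher than replicate 1 for 0 mitotic members and 1 S phase member, Chaf1a, against 7.05% of all genes. The median log2 fold change of replicate 2 over 1 was 2.17 for the mitotic and 0.67 for the S phase members. That of replicate 3 over 1 was 0.48 for the mitotic and 0.31 for the S phase members, but the groups went opposite ways. In summed CPM the ratio of replicate 3 to 1 was 2.15 in IRI with IVCC and 0.875 in IRI for the mitotic members. For the S phase members it was 1.69 in IRI with IVCC and 0.815 in IRI. The mitotic members were thus set apart mainly by replicate 2. The count of S phase members called was 17 when IRI with IVCC replicate 3 was left out, 13 when IRI replicate 3 was and 5 when IRI replicate 1 was. The all-gene shares called were 53.4% without the first of these libraries, 35.5% without the second and 5.85% without the last.

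Replicate 2 was also above replicate 3, but that contrast depended on the libraries and the tool. With all 6 libraries edgeR called 0 members and 0% of all genes higher in replicate 2, although 21 mitotic and 5 S phase members stood higher at an unadjusted p under 0.05, against 3.08% of all genes. DESeq2 called 67 of the 14274 genes that passed the filter in that contrast, 34 of them higher in replicate 2. Among these 34 genes were 7 mitotic members and 1 S phase member. When both libraries numbered 1 were left out, an alternative added after the data were seen, edgeR called 17 mitotic members and 1 S phase member higher in replicate 2, against 0.743% of 14402 genes. The median log2 fold change of replicate 2 over 3 was then 1.80 over the mitotic and 0.46 over the S phase members. The 1 S phase member was Rrm2, with a log2 fold change of 1.34 (edgeR adjusted p = 0.0140). Without both libraries numbered 2, edgeR called 1 mitotic and 1 S phase member between replicates 3 and 1, against 14.6% of all genes.

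**Figure D4:**
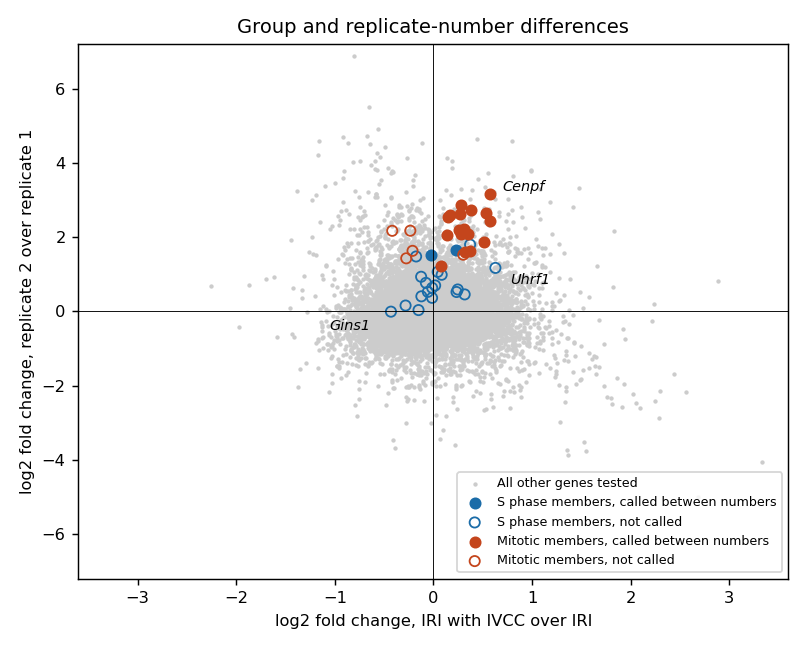
Fitted log2 fold changes of all genes tested, IRI with IVCC over IRI on the horizontal and replicate 2 over replicate 1 on the vertical axis, with members in colour and filled where called between replicate numbers. All 22 mitotic members lie above 0 on the vertical axis, from 1.23 to 3.15, and between -0.42 and 0.57 on the horizontal axis.

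Cenpf had the smallest p of all members between the replicate numbers. It held 1.43, 12.6 and 2.66 CPM in IRI with IVCC replicates 1, 2 and 3 and 0.873, 8.10 and 2.29 CPM in IRI. The log2 fold change of replicate 2 over 1 was 3.15 (standard error 0.35, edgeR adjusted p = 0.00583). Ccna2, the cyclin of late S phase and early mitosis, held 1.88, 14.98 and 5.01 CPM in IRI with IVCC and 2.78, 13.4 and 3.35 CPM in IRI. Kif11, the motor that pushes spindle poles apart, held 1.61, 16.2 and 5.33 CPM in IRI with IVCC and 2.38, 9.89 and 3.79 CPM in IRI. Prc1 held 1.43, 11.03 and 2.82 CPM in IRI with IVCC and 1.59, 9.37 and 0.793 CPM in IRI. For all 4 genes the lowest library numbered 2 was above the highest of the other libraries. The log2 fold changes of replicate 2 over 1 were 2.58, 2.65 and 2.73 for Ccna2, Kif11 and Prc1, with standard errors of 0.36, 0.39 and 0.47. Their edgeR adjusted p-values for that contrast were 0.00962, 0.0111 and 0.0181.

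Mki67, which encodes the proliferation marker Ki-67, held 3.22, 46.1 and 14.1 CPM in IRI with IVCC and 7.86, 35.5 and 9.25 CPM in IRI. Top2a, the topoisomerase that untangles sister chromatids, held 6.00, 45.1 and 13.9 CPM in IRI with IVCC and 11.3, 34.4 and 8.72 CPM in IRI. These were the most highly counted mitotic members, and both were highest in the libraries numbered 2. Their log2 fold changes of replicate 2 over 1 were 2.87 and 2.18 with standard errors of 0.44 and 0.38 (edgeR adjusted p = 0.0125 and 0.0188). For Foxm1 that value was 2.44 (standard error 0.37, edgeR adjusted p = 0.0121). The 5 mitotic members not called between the numbers were Cdk1, Birc5, Cdc20, which activates the anaphase-promoting complex, the kinase Aurka and the kinetochore motor Cenpe. Their log2 fold changes of replicate 2 over 1 were 1.43, 2.17, 2.17, 1.63 and 1.53, and their edgeR adjusted p-values over all 3 numbers lay between 0.0540 and 0.0728. The 17 members called in the contrast of replicate 2 with 1 were a different set. Aurka and Cenpe were called there (edgeR adjusted p = 0.0445 and 0.0490), whereas Ccnb1 and Tpx2 were not (edgeR adjusted p = 0.0554 and 0.0543).

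Among the S phase members, the smallest p between replicate numbers was that of Rrm2, the regulated subunit of ribonucleotide reductase, which supplies deoxynucleotides. It held 15.1, 64.3 and 28.4 CPM in IRI with IVCC and 21.3, 52.3 and 18.3 CPM in IRI, with a log2 fold change of replicate 2 over 1 of 1.66 (standard error 0.30, edgeR adjusted p = 0.0221). For its partner Rrm1 that value was 0.63 (standard error 0.25, edgeR adjusted p = 0.181). Chaf1a was lowest in replicate 1, at 4.75, 15.9 and 16.1 CPM in IRI with IVCC and 7.23, 18.1 and 12.2 CPM in IRI. Its log2 fold change was 1.51 for replicate 2 over 1 and 1.26 for replicate 3 over 1 (edgeR adjusted p = 0.0331 and 0.0357). Cdc6, which loads the helicase, held 2.33, 13.6 and 9.63 CPM in IRI with IVCC and 4.29, 10.1 and 5.38 CPM in IRI. Ccne1, the cyclin of the entry into S phase, held 2.60, 7.67 and 4.31 CPM in IRI with IVCC and 3.73, 10.1 and 2.73 CPM in IRI. Cdc6 and Uhrf1 were called in the contrast of replicate 2 with 1, at 1.80 and 1.17 on the log2 scale (edgeR adjusted p = 0.0495 and 0.0401), whereas Ccne1 at 1.48 was not (edgeR adjusted p = 0.0621).

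The helicase subunits spread less. Mcm6, the most highly counted member, held 51.7, 122 and 101.3 CPM in IRI with IVCC and 83.3, 132 and 84.9 CPM in IRI. Mcm7 held 30.2, 61.5 and 59.2 CPM in IRI with IVCC and 46.7, 68.7 and 43.8 CPM in IRI. Over Mcm2 to Mcm7 the log2 fold changes of replicate 2 over 1 ran from 0.46 to 0.99, and 0 of these 6 genes were called in that contrast. Those of Pcna, Tyms, which makes thymidylate, and Gins1 were 0.16, 0.04 and -0.01, against 1.23 for Nusap1, the mitotic member with the smallest. In IRI libraries Pcna, Tyms and Gins1 were higher in replicate 1 than in replicate 2, whereas all 22 mitotic members were lower there.

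Longer lists held other genes of the same 2 stages. Of 53 other mitotic genes tested, 21 (39.6%) were called between the replicate numbers, against 8.01% of all genes. Of these 53 genes 22 were called higher in replicate 2 than in 1 and 0 lower, and their median log2 fold change was 1.59. Hmmr, a spindle protein, held 1.16, 11.6 and 2.19 CPM in IRI with IVCC and 0.873, 7.59 and 1.41 CPM in IRI. Knl1, a kinetochore scaffold, and Esco2, a cohesin acetyltransferase, had log2 fold changes of replicate 2 over 1 of 3.77 and 2.77 (edgeR adjusted p = 0.00783 and 0.00634). Of 45 other replication and S phase genes, 3 (6.67%) were called between the numbers, a share near that of all genes, and the median was 0.39. These 3 were Fancd2 and Clspn, which act in the response to stalled forks, and Pole, a subunit of the leading-strand polymerase. In the comparison of IRI with IVCC and IRI, 0 genes of either list were called by edgeR, with 1 other mitotic and 0 other S phase genes at an unadjusted p under 0.05. Their medians were 0.12 and -0.05.

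The promoters of the members carried different letters in the 2 sets. RefSeq promoter windows of GRCm38.p6, 250 bases before to 50 after a start, were found for 16 S phase and 17 mitotic members. The letters TTTGAA or TTTAAA of the CHR element, on either strand, stood in 15 mitotic members (88.2%) and 6 S phase members (37.5%), against 30.6% of 27025 genes. Within 50 bases of the start they stood in 13 mitotic members (76.5%) and 4 S phase members (25%), against 9.54% of all genes. CCAAT, bound by NF-Y, stood in 15 mitotic (88.2%) and 11 S phase members (68.8%), against 41.1% of all genes. An E2F spelling (TTTCCCGC, TTTCGCGC, TTTGCCGC or TTTGGCGC) stood in 1 mitotic member (5.88%) and 7 S phase members (43.8%), against 2.60% of all genes. Matches of different motifs overlapped once in the members' windows. A gene with several windows counts where at least 1 of them holds the letters. A match is a run of letters and not a measured binding site.

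Shown here are the windows of the S phase member and the 2 mitotic members with the smallest p between replicate numbers that hold the E2F or CHR letters, and that of Uhrf1, added after its values were seen because it holds an E2F spelling. Each runs 5′ to 3′ on the gene's own strand, and capitals mark the E2F, CHR and CCAAT letters on either strand.
Cenpf (GRCm38.p6 chr1:189688037-189688336, minus strand): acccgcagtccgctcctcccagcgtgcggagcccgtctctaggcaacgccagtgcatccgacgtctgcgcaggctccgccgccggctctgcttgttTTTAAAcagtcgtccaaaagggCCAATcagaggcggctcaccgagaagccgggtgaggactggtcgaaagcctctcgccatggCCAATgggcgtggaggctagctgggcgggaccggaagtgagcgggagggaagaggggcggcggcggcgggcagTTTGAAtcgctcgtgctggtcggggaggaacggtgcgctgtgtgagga
Kif11 (GRCm38.p6 chr19:37376132-37376431, plus strand): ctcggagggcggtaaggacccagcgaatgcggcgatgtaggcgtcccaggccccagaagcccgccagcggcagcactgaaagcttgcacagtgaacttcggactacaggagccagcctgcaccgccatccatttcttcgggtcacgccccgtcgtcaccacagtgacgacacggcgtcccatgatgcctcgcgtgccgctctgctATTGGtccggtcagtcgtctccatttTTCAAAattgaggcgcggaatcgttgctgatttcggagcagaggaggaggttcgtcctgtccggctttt
Rrm2 (GRCm38.p6 chr12:24708004-24708303, plus strand): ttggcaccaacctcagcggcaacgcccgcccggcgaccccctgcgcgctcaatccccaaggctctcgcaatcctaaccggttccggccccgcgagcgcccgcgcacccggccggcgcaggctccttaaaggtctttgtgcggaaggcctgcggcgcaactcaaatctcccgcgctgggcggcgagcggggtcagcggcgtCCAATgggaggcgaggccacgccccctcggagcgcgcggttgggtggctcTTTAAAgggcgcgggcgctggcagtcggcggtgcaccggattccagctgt
Uhrf1 (GRCm38.p6 chr17:56304063-56304362, plus strand): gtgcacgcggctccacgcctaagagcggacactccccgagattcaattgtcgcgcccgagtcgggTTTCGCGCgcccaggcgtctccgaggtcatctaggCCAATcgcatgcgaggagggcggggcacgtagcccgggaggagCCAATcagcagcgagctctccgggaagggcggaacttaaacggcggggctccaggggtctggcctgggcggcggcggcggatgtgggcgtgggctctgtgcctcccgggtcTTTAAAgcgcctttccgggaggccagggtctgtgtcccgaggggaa
Cenpf, Kif11 and Rrm2 each hold CHR letters close to the start and a CCAAT or its reverse complement upstream of them. In Kif11 both stand on the opposite strand. Rrm2 has CHR letters and none of the 4 E2F spellings in this window. Uhrf1 holds TTTCGCGC as well as CHR letters in the window shown, whereas its other RefSeq window holds neither. Ccna2 ranked before Kif11 by p between replicate numbers, but no window was found for it, so its letters were not searched.

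Regulators upstream of these genes did not share 1 order of libraries. Of 26 genes of G1 control and the E2F family 5 were called between replicate numbers, against 8.01% of all genes. These were Myc, E2f7, Ccnd1, E2f8 and Ccnd3. E2f7, an atypical E2F that represses E2F targets, held 0.179, 3.43 and 1.41 CPM in IRI with IVCC and 0.159, 1.70 and 0.705 CPM in IRI, highest in replicate 2, as the mitotic members were. It rests on 2 to 47 reads a library. Of the 26 genes, 4 had both libraries numbered 2 above the other 4, against 4.62% of all genes. These were E2f1, E2f2, E2f7 and Mybl2, the gene of B-MYB. Ccnd1, cyclin D1, held 110.0, 164 and 261 CPM in IRI with IVCC and 77.1, 98.7 and 190 CPM in IRI, highest in replicate 3. Myc, a growth-promoting transcription factor, held 46.4, 21.9 and 14.5 CPM in IRI with IVCC and 56.5, 16.1 and 9.08 CPM in IRI, highest in replicate 1. Among 6 tested CDK inhibitor genes 1 was called, against the same 8.01% of all genes. This was Cdkn1a, which encodes p21 and is induced by p53, at 78.1, 30.4 and 20.1 CPM in IRI with IVCC and 78.5, 22.5 and 14.5 CPM in IRI. Its log2 fold change was -1.59 for replicate 2 over 1 and -2.20 for replicate 3 over 1 (edgeR adjusted p = 0.0119 and 0.00219). Cdkn1a was highest in the 2 libraries numbered 1. Its part in the mitotic levels, which were low in the libraries numbered 1 and 3, was not tested. In the comparison of IRI with IVCC and IRI, edgeR called 0 genes of either list, with 0 of the first and 1 of the second at an unadjusted p under 0.05.

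**Figure D5:**
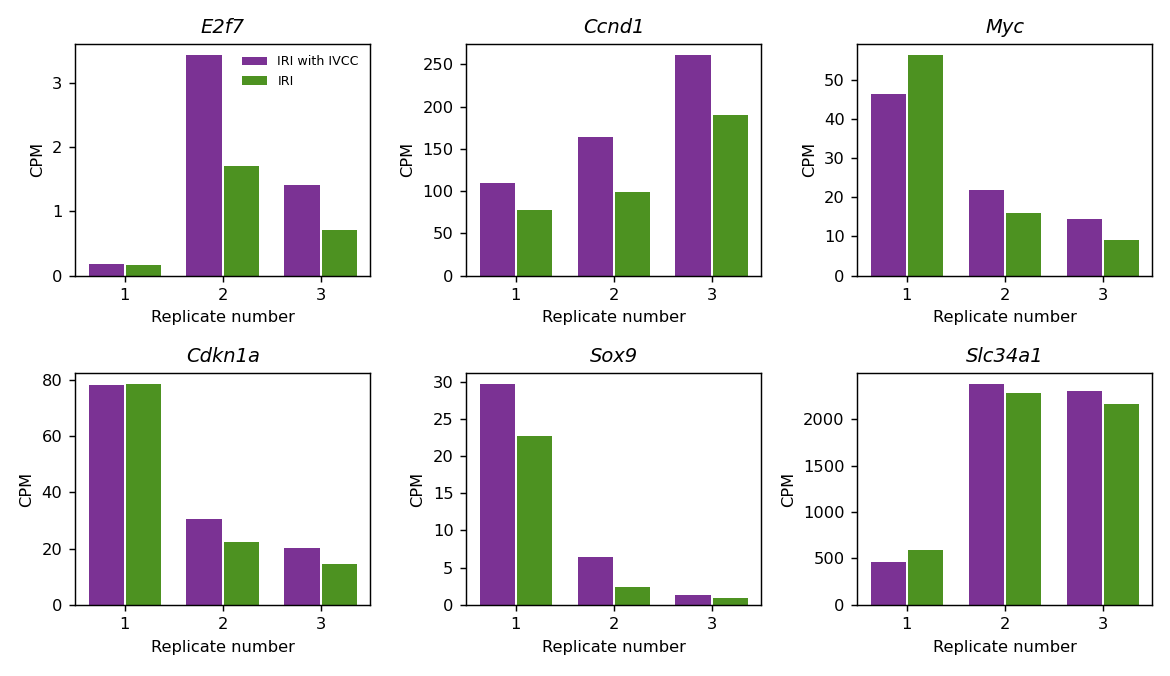
CPM of 3 G1 and E2F regulators, the CDK inhibitor Cdkn1a, the injury marker Sox9 and the proximal tubule transporter Slc34a1 in each library, by replicate number, IRI with IVCC beside IRI. E2f7 is highest in replicate 2, Ccnd1 in replicate 3, and Myc, Cdkn1a and Sox9 in replicate 1, where Slc34a1 is lowest.

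Injury and cell type markers moved with the replicate numbers too. Each count of called markers below stands against 8.01% of all genes called between the numbers. Of 10 tubular injury markers 9 were called between the numbers, and their summed level was 65373, 18442 and 11251 CPM in IRI with IVCC and 48165, 16372 and 6504 CPM in IRI. Sox9, a transcription factor of regenerating tubules, held 29.6, 6.43 and 1.25 CPM in IRI with IVCC and 22.7, 2.39 and 0.881 CPM in IRI. Of 12 proximal tubule markers 7 were called, all higher in replicate 2 than in 1, among them Slc34a1 at 465, 2379 and 2305 CPM in IRI with IVCC and 593, 2283 and 2162 CPM in IRI. In log2 fold change of replicate 2 over 1, 11 of the 12 lay above 0. Kap, the highest of the list, lay at -0.48 and was not called. The summed level of the list, mostly Kap, was 32719, 32377 and 35093 CPM in IRI with IVCC and 61702, 51733 and 35990 CPM in IRI. Of the 10 leukocyte markers tested 6 were called. Summed levels of all 16 were 541, 101.4 and 97.4 CPM in IRI with IVCC and 225, 75.2 and 95.4 CPM in IRI. The neutrophil gene S100a8 held 59.9, 4.75 and 2.51 CPM in IRI with IVCC and 20.2, 1.96 and 1.06 CPM in IRI. Of the other nephron segment markers 4 of 10 and of the endothelial and stromal markers 3 of 10 were called, with summed levels of 2125 to 6757 and 415 to 494 CPM in IRI with IVCC and 2141 to 6991 and 301 to 400.0 CPM in IRI. The summed injury and leukocyte levels were highest in replicate 1, where mitotic levels were low. Not every leukocyte marker followed the sum of its list. Csf1r was highest in replicate 3, at 25.6, 21.3 and 42.2 CPM in IRI with IVCC and 15.2, 23.3 and 47.7 CPM in IRI. None of these lists had a sum that was highest in replicate 2 of both groups except the endothelial and stromal one. Their part in the levels of the proliferation genes was not tested.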

How the data were processed

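RNA from kidney cortex was sequenced from a stranded mRNA library kit, per the labels. The deposited values are raw read counts, 1 whole number per gene and library. Per the submitters' processing notes, STAR 2.7.10a, featureCounts, Subread and GRCm38 were used, in roles not given there. Aligner parameters, annotation, strand setting and multimapping rules were not given in the sources used here. Reads can therefore be shared where exons overlap another gene, on the other strand for 11 members (Ccna2, Ccne2, Cdc20, Cdc45, Chaf1a, Gins2, Kif20a, Mcm7, Nusap1, Plk1, Prc1) and on the same strand for 3 (Foxm1, Mcm7, Top2a), and with the 5 pseudogenes named after Ccnb1, Ccnb2, Pcna and Tyms.

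Differential expression was fitted to the counts in edgeR 4.0.16 (R 4.3.3), with TMM factors, filterByExpr (minimum count 10, minimum total 15) and a robust quasi-likelihood F test. The fits had group as the term, or group and replicate number. P-values were adjusted by Benjamini-Hochberg over all genes tested and genes called at an adjusted p under 0.05. CPM values are TMM-scaled. Within-number differences are of log2 CPM with a prior count of 2, which makes them smaller than the log2 ratio of CPM where reads are few, as for many mitotic members. Exon lengths came from GENCODE M21 on GRCm38, and promoters from RefSeq. The fits were run on simulated data with known differences. Simulated data for the group fit held no differences between replicate numbers, so they do not show what that fit can detect in these libraries.

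Libraries of equal number were treated as pairs because the labels number them 1 to 3 in both groups. Deviations from the group means correlated at 0.724, 0.342 and 0.429 between libraries numbered 1, 2 and 3. These correlations come from the same counts, and libraries of unequal number were not compared in this way, so they do not establish the pairing.

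Members and lists were chosen with earlier results of these data known. Values per library are given for the 6 members of each set with the smallest p between numbers, the 4 with the smallest p between groups, the 3 with the highest CPM, and Mki67, Top2a, Cdk1, Ccnb1, Foxm1, Ccne1, Pcna and Mcm2. Up to 3 genes of each other list with the smallest p were named. Alternatives were other scaling, no filter, DESeq2 1.42.0, the replicate block, the number alone, libraries left out, and, added after the data were seen, pairwise contrasts and both libraries of a number left out.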

Additional observations from a re-analysis of the deposited data

How the results depend on the processing

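Between the groups, 0 genes were called under every alternative run, and the replicate block, in which the S phase median was -0.04 and the mitotic median 0.16, changed no call. Leaving out 1 library moved the mitotic median between -0.84 and 1.17, and the ratio of mean mitotic CPM, 1.14 with all libraries, between 0.588 and 2.08. Of 209 log2 fold changes of the 19 named members between groups, 30 changed sign and 179 did not. Total counts without factors, which moved the median of all genes to 0.0954, gave 0.0791 for Chaf1a and 0.0396 for Mcm7, and the replicate block -0.0037 for Mki67. Leaving out 1 library changed the sign of the others, each given here by its lowest and highest value: Ccna2 -0.91 and 1.25, Ccnb1 -0.90 and 1.18, Ccne1 -0.67 and 0.59, Cdc6 -0.14 and 0.82, Cdk1 -0.98 and 0.46, Cenpf -0.86 and 1.82, Chaf1a -0.30 and 0.36, Foxm1 -0.15 and 1.53, Kif11 -0.62 and 1.33, Mcm6 -0.39 and 0.16, Mcm7 -0.25 and 0.19, Mki67 -1.01 and 1.31, Prc1 -0.87 and 2.09, Rrm2 -0.49 and 0.86, and Top2a -0.87 and 1.12. Between replicate numbers, of 144 values of 12 named members 0 changed sign, 5 lost and 26 gained the call. The count over all genes, 1144, was 3231 with no filter, 1863 with DESeq2, 664 with the number alone, 744, 1916 and 0 for 2 over 1, 3 over 1 and 2 over 3, and 159 to 7841 with libraries left out. That of S phase members, 2, was 4 with total counts, 8 with no filter, 5 with DESeq2, 1 with the number alone, 4, 1 and 0 in the pairs, and 1 to 17 with libraries left out. That of mitotic members, 17, was 11 with the number alone, 0 for 3 over 1 and for 2 over 3, and 1 to 21 with libraries left out. Counts of members are to be read beside the all-gene counts, which moved too. The highest S phase count and the highest all-gene count both came without IRI with IVCC replicate 3. With no filter, more genes than the 14274 of the main fit were tested. The causes were not tested. Depth limits the mitotic members, of which a single library holds as few as 5 reads.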

Other observations

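Some genes of the longer mitotic list were not highest in the libraries numbered 2 of both groups. Pttg1, which encodes securin, held 49.1, 42.4 and 44.3 CPM in IRI with IVCC replicates 1, 2 and 3, against 113, 84.8 and 45.5 CPM in IRI. It had the smallest p of that list between the groups, with a log2 fold change of -0.84 (standard error 0.33), at an edgeR unadjusted p of 0.0344 and an adjusted p of 0.933, and was lower in IRI with IVCC in 3 of 3 numbers. Ube2s, a ubiquitin-conjugating enzyme of the anaphase-promoting complex, held 25.5, 29.4 and 32.2 CPM in IRI with IVCC and 37.0, 47.9 and 32.8 CPM in IRI, so that its groups did not overlap, as in 6.49% of all genes. Cks2, a small protein that binds CDK1, held 19.1, 23.01 and 26.2 CPM in IRI with IVCC and 32.2, 31.5 and 24.6 CPM in IRI. None of the 3 was called between replicate numbers, with edgeR adjusted p-values of 0.321, 0.696 and 0.958.

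Cdkn2b, which encodes the CDK4 and CDK6 inhibitor p15, held 1.88, 1.32 and 1.02 CPM in IRI with IVCC and 2.86, 2.90 and 2.29 CPM in IRI. Its groups did not overlap, as in 6.49% of all genes, and it rests on 13 to 36 reads a library. The log2 fold change of Cdkn2b was -0.93 (standard error 0.37, edgeR unadjusted p = 0.0354, adjusted p = 0.933). The cyclin gene Ccnd2 held 13.0, 25.1 and 12.3 CPM in IRI with IVCC and 7.38, 8.95 and 12.7 CPM in IRI. Its difference on the log2 scale was 0.80 (standard error 0.36), at an edgeR adjusted p of 0.933.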
